A study of Homo sapiens with 28 samples.

Results

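The 10 genes described here encode proteins of the U5 small nuclear ribonucleoprotein (U5 snRNP) and the cofactors that join it to the R2TP chaperone. They were chosen by name, with earlier results of these data known: PRPF8, EFTUD2, SNRNP200, SNRNP40, DDX23, TXNL4A, CD2BP2, AAR2, ECD and ZNHIT2. They are 10 of the 13897 genes listed in at least 1 of the 3 expression tables, and each of them is listed in all 3 tables. The study asked how the transcriptomes of H596 and H2009, cultured lines from human lung cancers other than small cell, respond when RUVBL1 is knocked down or when the RUVBL1/RUVBL2 ATPase is inhibited. RUVBL1 and RUVBL2 are the AAA+ ATPases at the core of R2TP.

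Poly(A) RNA of 20 libraries was used, 2 for each of 10 groups. In H596 these were cells with a siRNA against RUVBL1 (siBL1) for 3 days and cells with a non-targeting siRNA (siNT) for 3 days, and cells with 100 nM compound B for 24 h, with 100 nM compound C for 24 h and untreated cells. The H2009 groups were the same, except that the siRNAs were left for 2.5 days. The labels call compound B an inhibitor of the RUVBL1/RUVBL2 ATPase and do not say what compound C is. No vehicle-treated group stands beside the untreated cells. The labels give both lines as wild type and as adenocarcinoma, and each is 1 established cell line. They do not say whether the 2 replicates of a group were separate cultures, so p-values measure the spread between these libraries, which may be technical.

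U5 snRNP sits at the heart of the spliceosome, the machine that removes introns from pre-mRNA. Its large protein PRPF8 is the scaffold of the catalytic centre, and EFTUD2, a GTPase, and SNRNP200, the helicase that unwinds U4 from U6 RNA, are bound to it. R2TP is a chaperone that assembles multiprotein complexes, and ZNHIT2 and ECD link it to new PRPF8 and EFTUD2 protein while AAR2, as worked out in yeast, holds PRPF8 before SNRNP200 joins. These steps act on protein; what was measured here is the mRNA of the same genes.

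The promoter windows of 3 members are shown because their genes fell with compound B in H2009 (SNRNP40, and ECD in the paired fit described below) or have a start site that faces a gene that rose there (EFTUD2). Each holds 250 bases before to 50 bases after a RefSeq start on GRCh38.p14, is read 5′ to 3′ on the minus strand, and has matches to the searched motifs in capitals.
SNRNP40, chr1:31296739-31297038: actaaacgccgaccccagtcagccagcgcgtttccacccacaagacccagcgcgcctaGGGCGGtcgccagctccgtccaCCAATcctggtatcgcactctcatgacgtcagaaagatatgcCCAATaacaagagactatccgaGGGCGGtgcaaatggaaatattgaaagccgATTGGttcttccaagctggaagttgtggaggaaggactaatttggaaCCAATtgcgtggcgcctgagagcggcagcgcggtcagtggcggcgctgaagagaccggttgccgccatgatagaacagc
ECD, chr10:73167959-73168258: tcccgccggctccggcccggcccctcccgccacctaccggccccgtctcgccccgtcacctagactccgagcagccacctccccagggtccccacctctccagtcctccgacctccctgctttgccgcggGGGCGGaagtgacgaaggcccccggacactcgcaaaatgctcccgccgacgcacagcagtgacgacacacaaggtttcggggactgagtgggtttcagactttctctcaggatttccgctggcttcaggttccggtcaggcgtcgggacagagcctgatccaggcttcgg
EFTUD2, chr17:44899319-44899618: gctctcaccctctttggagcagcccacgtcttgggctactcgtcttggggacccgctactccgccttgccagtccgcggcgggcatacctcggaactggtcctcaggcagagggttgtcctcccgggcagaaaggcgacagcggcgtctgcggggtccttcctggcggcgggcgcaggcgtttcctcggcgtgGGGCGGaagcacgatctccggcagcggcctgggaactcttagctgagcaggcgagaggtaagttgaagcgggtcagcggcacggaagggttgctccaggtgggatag

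Motifs were searched on both strands as the E-box CACGTG, the ETS core CCGGAAG, the CCAAT box CCAAT, the GC box GGGCGG and the TATA box TATAAA. No 2 of these overlap in the 3 windows. The SNRNP40 window held 4 CCAAT matches and 2 GC boxes, while the ECD and EFTUD2 windows each held 1 GC box. RefSeq lists 13 windows for the 10 members, 2 each for EFTUD2, CD2BP2 and TXNL4A, and of the 2 for EFTUD2 the one with the lower coordinates is printed. A GC box was in 11 of the 13 windows, against 45% of all 35116 RefSeq promoter windows, and a CCAAT box in 4 of 13, against 34.6%. The ETS core was in 4 of 13 (10.3% of all windows), the E-box in 3 (7.26%) and the TATA box in 1 (11.5%). Counted by member, the GC box was in 8 of 10, the CCAAT box and the ETS core in 4 each, the E-box in 2 and the TATA box in 1. The E-box of EFTUD2 lies in its window that is not printed. The windows of a member with 2 starts share sequence where they overlap, as those of EFTUD2 do. A match is a description of the letters only.

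Expression is given as FPKM, fragments scaled by transcript length and by library size, which the authors computed, so levels may be compared between genes within a library. The number of reads behind each value is not given in the files, and the summed FPKM per library was 503785 to 749060 in the compound table, 398195 to 532638 in the H2009 siRNA table and 469839 to 575511 in the H596 siRNA table. The 3 tables were made separately, so every comparison is within a table. RUVBL1 itself was 1.75 and 1.11 FPKM with siBL1 in H2009, against 87.8 and 64.3 FPKM with siNT, and 2.26 and 2.52 FPKM with siBL1 in H596, against 112 and 123 FPKM with siNT. Of the markers checked, EPCAM, CDH1, KRT8, KRT18 and KRT19 of epithelium were abundant in both lines, while the squamous genes KRT5 (880 to 1452 FPKM) and TP63 (61.1 to 88.3 FPKM) were high in H596 and at most 0.806 and 0.236 FPKM in H2009 in the compound table. NKX2-1, a lung lineage factor, was 0.33 to 1.04 FPKM in H596 and 18.7 to 117 FPKM in H2009 there, and SFTPB, NAPSA, PTPRC, CD3E and PECAM1 had no row in any table. KRT14, also on the squamous list, was 4.92 to 11.4 FPKM in H596 and at most 1.17 FPKM in H2009 in the compound table. KRT5 and TP63 thus stand against the adenocarcinoma label of H596, while KRT14 was far below KRT5.

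Changes are differences of log2(FPKM + 1) between group means, which understate the change of genes near 1 FPKM. Each is followed by its standard error (SE) from limma, a linear model fitted over all genes with a mean of at least 1 FPKM, and by a Benjamini-Hochberg adjusted p over all those genes, called at 0.05. The paired fit is the same model with the replicate number as a block. It is given where it alters a call, because libraries with the same number deviated together in every pair of groups; what the number stands for is not in the labels. Fewer cells of a kind and less RNA per cell cannot be told apart in such bulk libraries.

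In untreated cells the order of the members' levels differed between the lines. In H596 PRPF8 stood first, with 101 and 99.1 FPKM, at percentile 92.3 of the tested genes, and SNRNP40, a WD40 repeat protein of U5, second, with 60.4 and 79.6 FPKM. SNRNP200 had 60.2 and 52 FPKM and DDX23, the helicase that releases U1 from the start of the intron, 31.4 and 42.8 FPKM. The next 4 genes in the order, ECD, EFTUD2, TXNL4A and AAR2, each overlapped its neighbour and had means of 28, 27.6, 23.5 and 19.6 FPKM. TXNL4A is the small thioredoxin-like protein of U5. CD2BP2, which is bound to U5 before it joins the tri-snRNP, followed with 17.7 and 17 FPKM, and ZNHIT2 was last, with 8.32 and 7.2 FPKM, at percentile 42.3.

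In H2009 SNRNP40 led with 122 and 140 FPKM, at percentile 94.5 of the tested genes. PRPF8 followed with 107 and 91.7 FPKM, and then DDX23 with 68.7 and 87.1 FPKM. DDX23 and EFTUD2 (69.9 and 58 FPKM) overlapped, as did SNRNP200 (56.6 and 47 FPKM) and ECD (40.4 and 53.7 FPKM), and TXNL4A (27.9 and 16.5 FPKM) and CD2BP2 (23.3 and 20 FPKM). AAR2 (16.2 and 11.7 FPKM) and ZNHIT2 (9.94 and 4.72 FPKM) were again low, with ZNHIT2 last at percentile 44.2.

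Set side by side, 4 of the 10 members were lower in untreated H596 than in untreated H2009 in the unpaired fit, where 19.1% of all tested genes were lower and 24.1% higher. EFTUD2 had 27.3 and 27.8 FPKM in H596, against 69.9 and 58 FPKM in H2009, a difference of -1.18 (SE 0.19, adjusted p = 0.000709). DDX23 was at -1.06 (SE 0.24, adjusted p = 0.00531), SNRNP40 at -0.91 (SE 0.29, adjusted p = 0.0317) and ECD at -0.72 (SE 0.21, adjusted p = 0.0221). All 4 had both H596 libraries below both H2009 libraries, as did CD2BP2, against 31.4% of all genes, and AAR2 had both above, against 37.8%. In the paired fit, where 31.3% of genes were lower and 38% higher, CD2BP2 was lower too (-0.30, adjusted p = 0.0413) and AAR2 higher (0.48, adjusted p = 0.00603). For this contrast that fit pairs no H596 library with an H2009 library. It takes each line's own replicate shift out of the error, so the SE of AAR2 was 0.13 there and 0.21 unpaired. The libraries of PRPF8 (0.01; 95% interval -0.62 to 0.64), SNRNP200 (0.11; -0.49 to 0.72), TXNL4A (0.10; -0.72 to 0.93) and ZNHIT2 (0.14; -0.66 to 0.94) overlapped between the lines. Without the first H596 library 1 of the 4 unpaired calls was left, that of EFTUD2, and without the second H2009 library 2, those of EFTUD2 and DDX23.

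**Figure D1:**
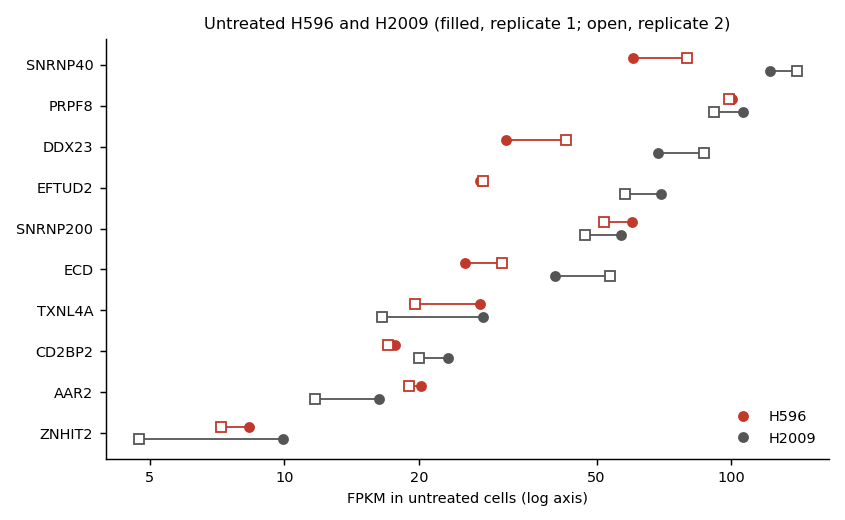
FPKM of the 10 members in untreated cells on a log axis, with the 2 libraries of H596 (red) above those of H2009 (grey) and a line joining the 2. EFTUD2, DDX23, SNRNP40 and ECD have both H596 points left of both H2009 points, while the points of PRPF8 lie between 91.7 and 107 FPKM in both lines.

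SNRNP40 mRNA was lower with compound B in H2009 than with compound C or without treatment. Its levels were 46.3 and 67.1 FPKM with compound B, 90.5 and 155 FPKM with compound C and 122 and 140 FPKM in untreated cells. Both compound B libraries lay below every other H2009 library in that table. Against untreated cells the change was -1.22 (SE 0.29, 95% interval -1.88 to -0.56, adjusted p = 0.0284), or 0.43 times the untreated level, and it was -1.38 and -1.05 within replicates 1 and 2. With any 1 of the 4 libraries left out the change stayed between -1.48 and -0.95 but did not pass the unpaired fit, nor did it in a fit on the 6 H2009 libraries alone. In the paired fit on all 12 libraries it passed with an adjusted p of 0.000131.

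ECD, the R2TP cofactor that binds PRPF8, showed the next largest change. It had 31.6 and 31.7 FPKM with compound B, 38.4 and 50 FPKM with compound C and 40.4 and 53.7 FPKM in untreated H2009. The compound B libraries lay below the other 4, and the change against untreated cells was -0.54 (SE 0.21; adjusted p = 0.144 unpaired and 0.008 paired). EFTUD2 had 51.4 and 48.6 FPKM with compound B, 62.9 and 49.8 FPKM with compound C and 69.9 and 58 FPKM in untreated cells, a change of -0.34 (SE 0.19; adjusted p = 0.284 unpaired and 0.0485 paired). That paired call ended with quantile normalization, which gave -0.20 (adjusted p = 0.248 paired). Its compound B libraries did not overlap the untreated ones, but the first of them lay above the second compound C library.

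PRPF8 had 75.2 and 72.8 FPKM with compound B, 119 and 61.3 FPKM with compound C and 107 and 91.7 FPKM in untreated H2009. Compound B and untreated libraries did not overlap, and the change was -0.41 (SE 0.28; adjusted p = 0.401 unpaired and 0.115 paired). The remaining 6 members overlapped with untreated cells and passed neither fit. TXNL4A was at -0.32 (SE 0.37), ZNHIT2 at -0.31 (SE 0.36), DDX23 at -0.18 (SE 0.24), SNRNP200 at -0.15 (SE 0.27), AAR2 at -0.13 (SE 0.21) and CD2BP2 at -0.09 (SE 0.18).

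Counted together, 1 of the 10 members was lower with compound B in H2009 in the unpaired fit, against 5.02% of all genes, and 3 of 10 in the paired fit, against 22.4%. None was higher in either fit, against 6.36% and 22.2% of all genes. All 10 members had a change below 0, as did 50.7% of the 12781 genes tested, and all 10 were lower within both replicates, as were 40.9%. The members' median change was -0.31, against -0.0064 over all genes. Groups that did not overlap were found for 4 of 10 members as lower, against 28.1% of all genes. The summed FPKM was 525804 and 503785 in the compound B libraries, against 632540 and 629210 in untreated H2009. With quantile normalization every member stayed below 0, but DDX23 was then at -0.0095 and SNRNP200 at -0.013. SNRNP40 was at -1.04 and ECD at -0.43. Whether the summed FPKM bears on the members' shared sign was not tested.

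**Figure D2:**
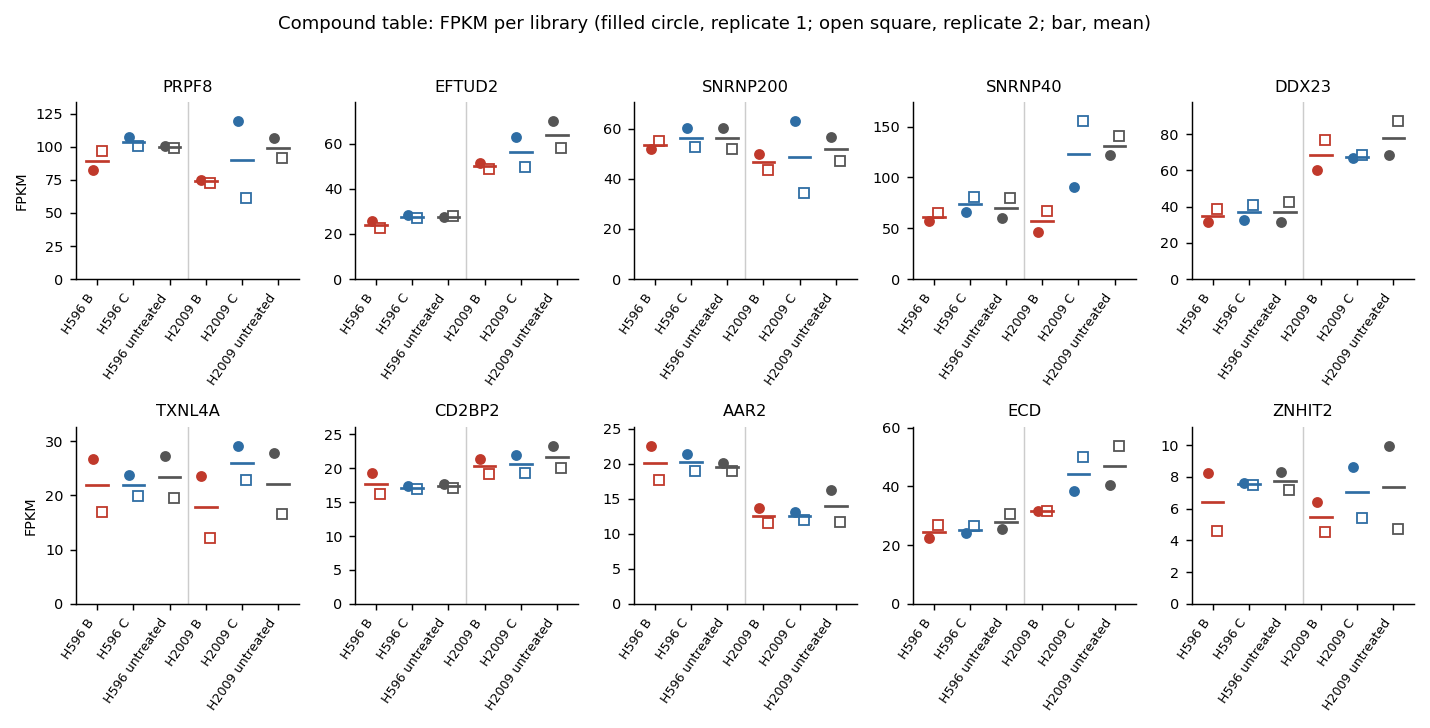
FPKM of each member in the 12 libraries of the compound table, with compound B (red), compound C (blue) and untreated cells (grey) for H596 on the left and H2009 on the right of each panel; bars are means of 2 libraries. SNRNP40 and ECD have both H2009 compound B points below every other H2009 point, and the H596 compound B points of SNRNP40 overlap those of untreated H596.

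Compound C, used at the same dose and time, gave no call among the members in H2009 in either fit, where limma called 1 of all 12781 genes as lower unpaired (0.00782%) and 9 genes, none of them a member, had an unadjusted p under 0.05. With no change at all, a share of about 0.05 of the genes would have such a p. Far fewer had one, so the lack of unpaired calls does not show that compound C left the members unchanged. Paired, 1 gene was higher and 1 lower. The members' changes against untreated cells ran from -0.21 (PRPF8) to 0.25 (TXNL4A). That of SNRNP40 was -0.14 with a 95% interval of -0.80 to 0.52. The second compound C library of H2009 had the lowest PRPF8 and SNRNP200 values (61.3 and 34.2 FPKM) of the 6 H2009 libraries in that table and the first the highest (119 and 62.9 FPKM).

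Compounds B and C were compared directly for the 10 members in each line. In H2009 limma called 6.16% of genes higher unpaired and 21.6% paired, and no member. SNRNP40 differed by -1.08 (SE 0.29, 95% interval -1.74 to -0.42, adjusted p = 0.0451), with -0.95 and -1.20 within replicates 1 and 2. This was the single member lower in the unpaired fit, against 5.28% of all genes. Leaving out a compound B library, or the second compound C library, ended the call, and the difference then lay between -1.34 and -0.69. Quantile normalization (-0.84) and a fit on the 6 H2009 libraries alone ended the unpaired call too. The paired fit called 3 of 10 members as lower, against 24% of genes: SNRNP40 (adjusted p = 0.000299), TXNL4A (-0.57, adjusted p = 0.0114) and ECD (-0.46, adjusted p = 0.0185). TXNL4A had 23.6 and 12.2 FPKM with compound B and 29.1 and 22.8 FPKM with compound C, so its libraries overlapped and it was lower within each replicate. The other 7 members passed neither fit. EFTUD2 differed by -0.16 (95% interval -0.58 to 0.26), PRPF8 by -0.21 (-0.84 to 0.42) and DDX23 by 0.01 (-0.52 to 0.54), intervals too wide to show that the compounds act alike on them.

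In H596 no member passed either fit with compound B, in a comparison where limma called 0 of 12781 genes unpaired (735 had an unadjusted p under 0.05, none a member) and 2.89% as lower and 3.79% as higher paired. SNRNP40 had 57 and 64.6 FPKM with compound B, 66.3 and 80.3 FPKM with compound C and 60.4 and 79.6 FPKM in untreated H596. The compound B values overlapped the untreated ones, and the change was -0.19 (SE 0.29, 95% interval -0.85 to 0.47). PRPF8 (82.6 and 96.7 FPKM with compound B, against 101 and 99.1 FPKM untreated) and EFTUD2 (25.5 and 22.5 FPKM with compound B, against 27.3 and 27.8 FPKM untreated) did not overlap as lower, against 15.2% of all genes. The members ran from -0.28 (ZNHIT2) to 0.03 (AAR2), with a median of -0.13, against -0.03 over all genes, and 7 of 10 were lower within both replicates, against 39.2%.

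With compound C in H596 limma called 0 of 12781 genes in either fit (20 had an unadjusted p under 0.05), and the members lay between -0.14 (ECD) and 0.07 (SNRNP40). Those 20 are again far below a share of 0.05, so the lack of unpaired calls does not show the absence of change. Between compounds B and C in H596 no member passed, while limma called 0 genes as lower and 0.00782% as higher unpaired, and 1.67% and 2.99% paired; 599 genes, no member among them, had an unadjusted p under 0.05. SNRNP40 differed there by -0.26 (95% interval -0.92 to 0.40) and was lower in both compound B libraries, as were PRPF8 (-0.21) and EFTUD2 (-0.20), against 13.3% of genes.

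The difference between the lines was tested itself, as the compound B effect in H596 minus that in H2009. For SNRNP40 it was 1.03 (SE 0.42, 95% interval 0.09 to 1.96, adjusted p = 0.48 unpaired), with 1.30 and 0.75 within replicates 1 and 2. In the paired fit it passed (adjusted p = 0.0118, 95% interval 0.54 to 1.51), as 1 of 10 members, against 6.11% of all genes as higher; unpaired 0.125% of genes were higher and no member. As lower the paired fit called 8.19% of genes and no member. SNRNP40 was also the member that differed most in absolute level in untreated cells, 70 ± 13.5 FPKM in H596 and 131 ± 12.8 FPKM in H2009 (SD, n = 2 each), and with compound B it had 60.8 ± 5.3 FPKM in H596 and 56.7 ± 14.8 FPKM in H2009. The other 9 members lay between 0.02 (ZNHIT2) and 0.36 (ECD), none called.

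**Figure D3:**
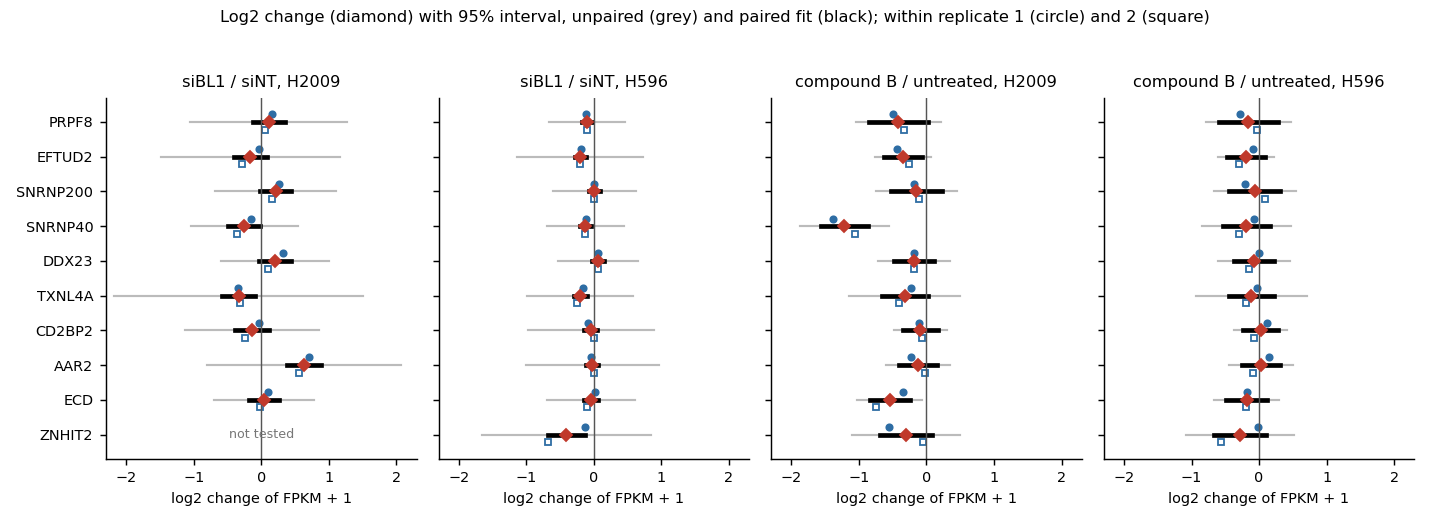
Change of log2(FPKM + 1) for each member (diamond) with the 95% interval of the unpaired (grey) and the paired (black) fit, and the change within replicate 1 (circle) and 2 (square), in 4 comparisons. SNRNP40 with compound B in H2009 stands at -1.22, the farthest from 0, and the grey intervals of the siRNA comparisons span 0 for every member tested.

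After knockdown of RUVBL1 in H2009 the members did not move as a block. AAR2, the PRPF8 assembly factor, had 28.5 and 13 FPKM with siBL1 and 17 and 8.57 FPKM with siNT, a change of 0.63 (SE 0.54; 0.71 and 0.55 within replicates 1 and 2; adjusted p of 1 unpaired and 0.00293 paired). The first libraries of both groups were higher than the second ones, so the groups overlapped while each replicate gave the same direction. TXNL4A had 25.9 and 9.44 FPKM with siBL1 and 33.1 and 12 FPKM with siNT, a change of -0.33 (SE 0.70; adjusted p of 1 unpaired and 0.0345 paired). In the unpaired fit limma called 0 of 11223 genes, RUVBL1 among the uncalled (-4.98, SE 0.34, adjusted p = 0.56), and 532 genes but no member had a p under 0.05 before adjustment. With the block, limma called 1 of 9 members as higher, against 15.4% of all genes, and 1 as lower, against 27%.

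SNRNP40 had 82.4 and 67.3 FPKM with siBL1 and 91.4 and 86.5 FPKM with siNT in H2009, without overlap (18.9% of all genes as lower). Its change of -0.25 passed neither fit (adjusted p = 0.0831 paired). DDX23 had 97 and 78.3 FPKM with siBL1 and 77.7 and 73.2 FPKM with siNT, also without overlap (12.1% of genes as higher), with a change of 0.21 (adjusted p = 0.149 paired). SNRNP200 was at 0.22, PRPF8 at 0.11, ECD at 0.04, CD2BP2 at -0.14 and EFTUD2 at -0.16, all with overlap. The members' median was 0.04, against -0.08 over all genes.

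That balance moved with the scaling. With quantile normalization 50.7% of the genes called in the paired fit were higher, against 36.4% without. Among the 9 members it called AAR2, DDX23, PRPF8 and SNRNP200 as higher and none as lower. Of all tested genes it called 26% higher and 25.3% lower. AAR2 was then at 0.73 (adjusted p = 3.55e-05), and TXNL4A at -0.24 no longer passed.

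ZNHIT2 was near the detection floor of the H2009 siRNA table, with 0.624 and 0.379 FPKM with siBL1 and 0.631 and 0.261 FPKM with siNT, and was not tested there. In the compound table the untreated H2009 libraries had 9.94 and 4.72 FPKM of it. RUVBL2 differed between the same tables in the same way, with 52.9 and 43.9 FPKM with siBL1 and 45.1 and 46.7 FPKM with siNT, and 231 and 225 FPKM in untreated cells of the compound table. Whether the cells or the separate making of the tables set this was not tested.

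In H596 the siRNA changes lay below 0 for 8 of 10 members, against 52.8% of all genes. The unpaired fit called 0 of 12004 genes by limma (RUVBL1 at -5.13, adjusted p = 0.158), and 137 genes, none a member, had a p under 0.05 before adjustment. That is below the share of about 0.05 reached with no change at all, so the lack of unpaired calls does not show the absence of change. With the block, limma called 5 of 10 members as lower, against 26.6% of all genes, and none as higher, against 19.8%. ZNHIT2 had 9.65 and 4.07 FPKM with siBL1 and 10.7 and 7.11 FPKM with siNT. Its change was -0.41 (SE 0.46 unpaired and 0.12 paired, adjusted p = 0.0279 paired), with -0.14 and -0.68 within replicates 1 and 2. EFTUD2 had 36.4 and 24.3 FPKM with siBL1 and 41.6 and 28.3 FPKM with siNT. Its change was -0.20 (SE 0.34 unpaired and 0.035 paired, adjusted p = 0.00485 paired). TXNL4A was at -0.20 (adjusted p = 0.00782 paired), with 23.3 and 16.9 FPKM with siBL1 and 26.1 and 20.2 FPKM with siNT.

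SNRNP40 (53.9 and 54.4 FPKM with siBL1, 58.5 and 59.8 FPKM with siNT) and PRPF8 (91.8 and 91.4 FPKM with siBL1, 99.1 and 97.8 FPKM with siNT) were the members whose siBL1 libraries both lay below both siNT libraries in H596, against 8.64% of genes. Their changes were -0.12 (adjusted p = 0.0242 paired) and -0.10 (adjusted p = 0.0428 paired), and neither passed the paired fit after quantile normalization, which called EFTUD2, TXNL4A and ZNHIT2 as lower and DDX23 (0.12, adjusted p = 0.0244) as higher. Of all tested genes the paired fit then called 22.6% lower and 22.1% higher. Without quantile normalization DDX23, SNRNP200, CD2BP2, AAR2 and ECD lay between -0.05 and 0.06. The members' median was -0.07, against -0.01 over all genes.

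**Figure D4:**
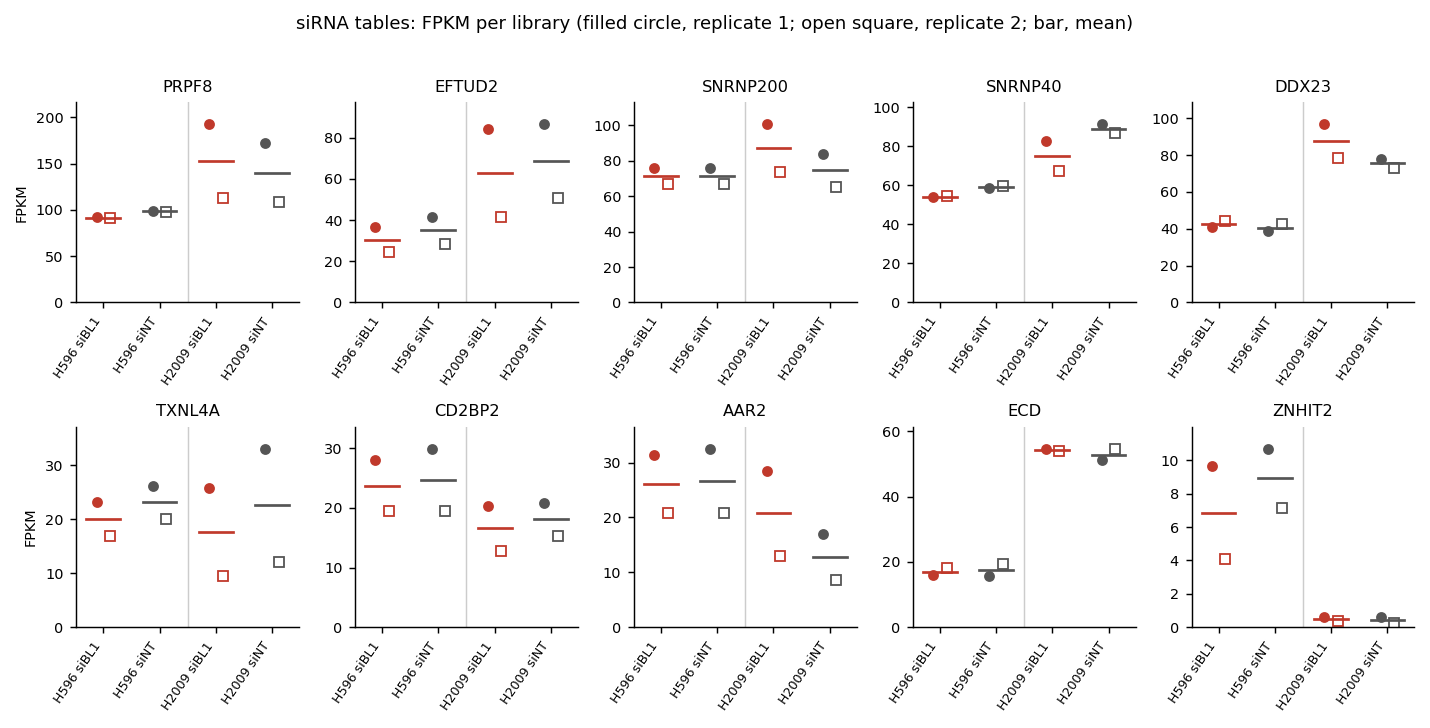
FPKM of each member in the 8 siRNA libraries, with siBL1 (red) left of siNT (grey) for H596 on the left and H2009 on the right of each panel; bars are means of 2 libraries. AAR2 is higher with siBL1 within each H2009 replicate. Replicate 1 (filled) lies above replicate 2 (open) in each of the 4 groups for AAR2, TXNL4A, CD2BP2, ZNHIT2, EFTUD2, PRPF8 and SNRNP200.

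Knockdown and compound B were compared by sign only, as they come from different tables with different controls. In H2009 4 of 9 members had the same sign in both, all below 0 (EFTUD2, SNRNP40, TXNL4A and CD2BP2), against 68.6% of 11074 genes. All 10 members were below 0 with compound B there, so these 4 are the members below 0 with siBL1. The share over all genes also counts genes above 0 in both. In H596 6 of 10 members did, all below 0, against 64.6% of 11695 genes. For SNRNP40 in H2009 the change was -1.22 with compound B and -0.25 with siBL1, and for ECD -0.54 and 0.04.

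Over the 12 libraries of the compound table, each centred on its line, Pearson's r among the 45 pairs of members had a median of 0.35, ran from -0.71 (DDX23 and TXNL4A) to 0.92 (CD2BP2 and AAR2), and was above 0 for 31 pairs. SNRNP40 followed ECD (0.89) and was at 0.13 with PRPF8, while PRPF8 followed SNRNP200 (0.90) and EFTUD2 (0.80). These points share replicate number and treatment. AAR2, CD2BP2, TXNL4A and ZNHIT2 were higher in replicate 1 than in replicate 2 in 10 of 10 groups over the 3 tables. EFTUD2, PRPF8 and SNRNP200 were so in 9 of 10, SNRNP40 and DDX23 in 2 of 10 and ECD in 1 of 10. The replicate difference of TXNL4A had a median of 0.54 on the log2 scale, and reached 1.39, while its change was -0.57 between compounds B and C in H2009 and at most 0.33 in size with siBL1 or compound B against their controls.

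The genes most like 3 members over these 12 libraries were taken as the 3 with the highest r. For SNRNP40 they were DEPDC1B (0.98), RNF115 (0.98) and PCCB (0.98). DEPDC1B had 12.5 and 15.1 FPKM with compound B and 32.2 and 39.9 FPKM in untreated H2009. For ECD they were ZNF239, PSMC2 and CNOT7 (each 0.97), and for PRPF8 they were ACACA (0.97), TNRC6A (0.96) and SMC1A (0.96). None of these 9 genes is a member or a spliceosomal gene of the lists below.

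Some members start close to a gene on the other strand, and these neighbours were looked up by position after the members' values were seen. RefSeq places the start of another gene within 1000 bases of 6 members, and 4 of these neighbours have rows in all 3 tables. CCDC103 (DNAAF19 in RefSeq), a dynein arm assembly factor that faces EFTUD2, had 9.78 and 7.23 FPKM with compound B, 1.67 and 1.59 FPKM with compound C and 1.85 and 1.85 FPKM in untreated H2009. It rose by 1.72 (SE 0.18, adjusted p = 0.000849), the opposite direction to EFTUD2 at -0.34. With siBL1 in H2009 CCDC103 had 5.79 and 4.51 FPKM, against 2.08 and 2.13 FPKM with siNT (0.98, adjusted p = 0.967 unpaired and 0.00111 paired). In H596 it had 5.74 and 5.12 FPKM with compound B, against 3.43 and 2.94 FPKM in untreated cells (0.62, adjusted p = 0.49 unpaired and 0.0142 paired).

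FAM149B1, which faces ECD, had 11.6 and 12.3 FPKM with compound B and 6.34 and 9.73 FPKM in untreated H2009 (0.54, adjusted p = 0.163 unpaired and 0.00736 paired), against -0.54 for ECD. With compound B in H596 FAM149B1 rose by 0.59 (adjusted p = 0.717 unpaired and 0.0272 paired), with ECD at -0.18. With siBL1 it was at 0.09 in H2009 and 0.14 in H596 and passed neither fit. ZCCHC17, which faces SNRNP40, had 121 and 145 FPKM with compound B and 88.2 and 140 FPKM in untreated H2009, with overlap (0.25, 95% interval -0.69 to 1.18). RBFA, which faces TXNL4A, had 2.41 and 2.15 FPKM with compound B and 3.94 and 3.38 FPKM in untreated H2009 (-0.50, adjusted p = 0.0981 unpaired and 0.00502 paired). The libraries were made with a stranded kit, but the sources used here do not say whether strand was used in the counting, so reads near such facing starts may be shared.

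The other parts of the spliceosome and of R2TP were described by 6 lists. With compound B in H2009, 22.4% of all genes were lower and 22.2% higher in the paired fit. Unpaired, these shares were 5.02% and 6.36%. With compound B in H2009 the U1 and U2 snRNP list had 10 of 15 genes lower and none higher in the paired fit (2 lower unpaired), with a median of -0.59. SNRPA, the U1 protein that binds a stem loop of U1 RNA, had 24 and 17.5 FPKM with compound B and 104 and 68.5 FPKM in untreated cells (-1.99, SE 0.34, adjusted p = 0.00662). SF3B3, a subunit of the U2 factor SF3B, had 17.5 and 20.3 FPKM with compound B and 41.9 and 43.2 FPKM in untreated cells (-1.13, SE 0.16, adjusted p = 0.00308). SNRPA changed by more than any member of the U5 group, and SF3B3 by more than any but SNRNP40.

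The U4/U6 and tri-snRNP list had 9 of 18 genes lower and none higher paired with compound B in H2009 (1 lower unpaired, median -0.45). Over all genes 22.4% were lower and 22.2% higher paired, and 5.02% were lower unpaired. LSM2 (-1.13, adjusted p = 0.145 unpaired and 0.00578 paired) and LSM7 (-1.11, adjusted p = 0.0667 and 0.000352), subunits of the ring on the end of U6 RNA, led it. The Sm core and its assembly had 9 of 18 genes lower and 1 higher paired (1 lower unpaired; median -0.47), with SNRPD1, an Sm ring protein, at 69.5 and 65.6 FPKM with compound B and 116 and 162 FPKM in untreated cells (-1.01, adjusted p = 0.0422). GEMIN2, of the SMN complex that loads the Sm ring, was at -1.15 (adjusted p = 0.302 unpaired and 0.000271 paired).

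The PRP19 complex had 5 of 13 genes lower and none higher paired (1 lower unpaired; median -0.15), with PRPF19, its ubiquitin ligase, at 47.4 and 47.6 FPKM with compound B and 93.3 and 85.9 FPKM in untreated H2009 (-0.90, adjusted p = 0.00856). The R2TP and PAQosome list had 6 of 11 genes lower and 1 higher paired (1 lower unpaired; median -0.43), led by the prefoldin PFDN2 (71.2 and 82.4 FPKM with compound B, 161 and 178 FPKM untreated; -1.13, adjusted p = 0.0436). Of 5 HIT zinc finger genes 2 were lower and none higher paired. With compound C no gene of the 6 lists passed either fit in either line. With compound B in H596 SNRPA (-1.22, adjusted p = 0.00175 paired) was lower and SNRPA1, a U2 protein (0.95, adjusted p = 0.00923 paired), higher. These were the 2 calls of the 6 lists there, where 2.89% of all genes were lower and 3.79% higher paired.

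After siBL1 in H2009, where the unpaired fit called none of the list genes, PRPF3 of U4/U6 had 94.3 and 90.3 FPKM, against 49.9 and 51.3 FPKM with siNT (0.85, adjusted p = 0.000515 paired). SNRPA (-1.46) and SF3B3 (-1.06) were lower paired there too (adjusted p = 0.000155 and 0.00033), as was PIH1D1, the R2TP subunit that recruits clients (29.9 and 24.5 FPKM with siBL1, 54.5 and 65 FPKM with siNT; -1.11, adjusted p = 0.000572). Over all genes the paired fit called 15.4% higher and 27% lower in H2009 and 19.8% higher and 26.6% lower in H596. Several list counts in H2009 lie near its shares. In H596 the lower counts lie above that share for every list but the HIT zinc fingers. The lists were not tested as sets. The paired counts of higher and lower genes in H2009 were 4 and 5 of 18 for U4/U6 and tri-snRNP, 1 and 6 of 18 for the Sm core, 2 and 4 of 15 for U1 and U2, 5 and 1 of 13 for PRP19, 1 and 5 of 11 for R2TP and 1 and 2 of 5 for the HIT zinc fingers. In H596 they were 1 and 9, 0 and 12, 3 and 8, 1 and 5, 0 and 7, and 1 and 1, with SNRPA at -0.70 (adjusted p = 7.9e-05 paired) and STRAP, of the SMN complex, at -0.50 (adjusted p = 0.000248 paired). In both lines the lower R2TP genes include RUVBL1, the target of the siRNA, so that call was set by the design.

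**Figure D5:**
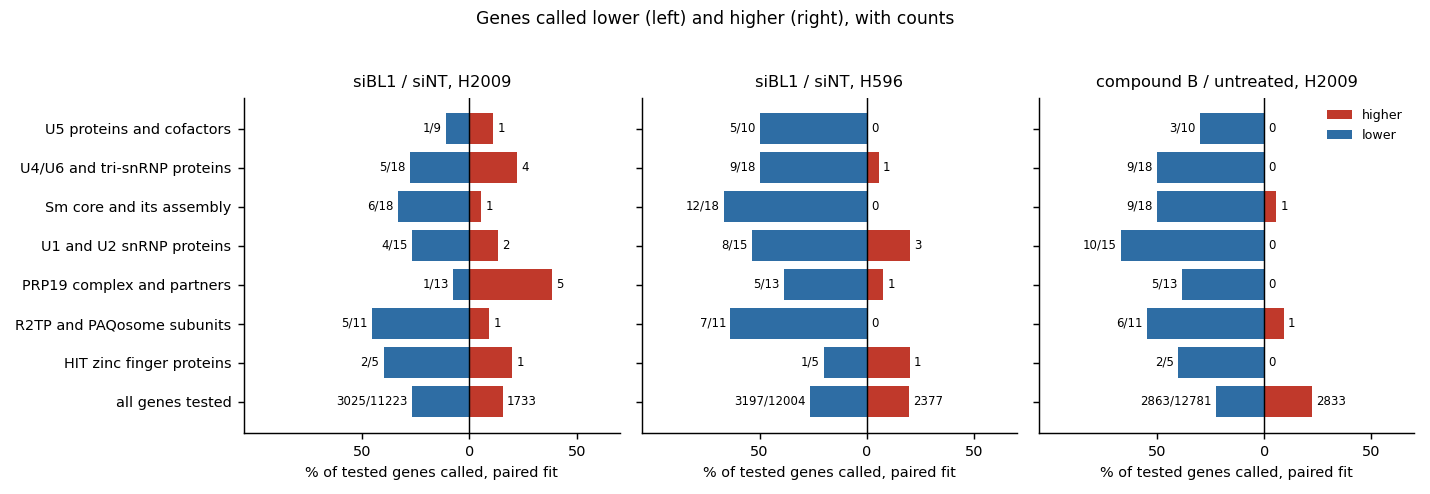
Share of the tested genes of each list called lower (blue, left) and higher (red, right) in the paired fit, with the counts, in 3 comparisons; the lowest bar is all tested genes. With compound B in H2009 3 of 10 U5 and cofactor genes were lower, against 10 of 15 U1 and U2 genes, 9 of 18 U4/U6 genes and 22.4% of all genes. In the siRNA comparisons the R2TP genes called lower include RUVBL1, the target of the siRNA.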

How the data were processed

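The FPKM values are the authors' and were deposited in 3 tables; per the submitters' processing notes CASAVA 1.8.2, TopHat2 2.0.12, Cufflinks 2.2.1 and hg19 were used. Read depth is not given, so no counting error could be computed. Left out were 19 entries with date-like names in the H2009 siRNA data. The 8 cDNA libraries of the series were not analysed here.

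From the deposited FPKM, log2(FPKM + 1) was fitted with limma 3.58.1 (R 4.3.3, trend) for genes with a mean of at least 1 FPKM, per siRNA table and over all 12 libraries of the compound table with 6 group means; in the compound table the mean had to hold in at least 1 line. Each of the 10 comparisons was adjusted by Benjamini-Hochberg over all its tested genes at 0.05. The fits were tested on simulated data. The paired fit adds a shift between replicates 1 and 2 in each line. Numbers come from the labels; the deviations of same-numbered libraries correlated at 0.46 to 0.97 in all 45 pairs of groups.

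The members and lists were chosen with earlier results of these data known. All 10 members, RUVBL1 and RUVBL2 are named, of each list the 2 called genes with the largest change at most, and the 3 genes most like the 3 members that changed most with compound B in H2009; the neighbouring genes were added after the values were seen. Alternatives were another pseudocount (0.1), no filter, quantile normalization, moderation without a trend, the 6 libraries of 1 line, each library left out, the replicate block, and, added after the data were seen, quantile normalization with the block.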

Additional observations from a re-analysis of the deposited data

Results flagged for a closer look

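The compound B effect on SNRNP40 differed between the lines by 1.03 on the log2 scale (H596 minus H2009; adjusted p = 0.48 in the unpaired and 0.0118 in the paired limma fit). It stands out because this difference itself passed the paired test, with 1.30 and 0.75 within replicates 1 and 2. Leaving out 1 library at a time gave 0.76 to 1.29, none passing the unpaired fit.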

How the results depend on the processing

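With the replicate block the number of members called was 2 and not 0 with siBL1 in H2009, 5 and not 0 with siBL1 in H596, 3 and not 1 with compound B in H2009, 3 and not 1 between compounds B and C in H2009, and 1 and not 0 for the line difference; between untreated lines it was 6 and not 4, within 1.5 times. Quantile normalization with the replicate block gave 4, 4, 2, 3 and 1 in the first 5 of these. Of all tested genes that setting called 26%, 22.1%, 22.4%, 22.1% and 8.72% higher in the same order. It called 25.3%, 22.6%, 23.7%, 23.4% and 8.83% lower. Using only the 6 libraries of a line gave 0 for compound B in H2009 and 0 for B against C, and quantile normalization alone gave 0 for the second. Leaving out 1 library at a time gave 0 to 0 for compound B in H2009, 0 to 1 for B against C in H2009 and 1 to 4 between untreated lines. In the siRNA tables the sign of a change called in the paired fit turned when 1 library was left out for TXNL4A in H2009 (-1.03 to 0.36) and for EFTUD2 (-0.48 to 0.082), TXNL4A (-0.42 to 0.021) and ZNHIT2 (-0.94 to 0.13) in H596; leaving out 1 library also unbalances the replicate numbers. The cause of the other shifts was not tested. Another pseudocount, no filter and moderation without a trend kept every count of members called within 1.5 times. With 2 libraries a group and no read counts, differences of the size of most members' changes could not be resolved by the unpaired fit.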
